A study of Danio rerio with 30 samples.

Results

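S5 and S1 are the caudal and the rostral end of the stretch of adult zebrafish intestine that carries villar ridges of similar height, and they were compared here array by array. The intestine of wild-type adult male fish, about a year old, was cut into segments of roughly equal length, numbered S1 to S7 from the esophageal junction to the anus. In the study's anatomy S5 is the first segment of the caudal intestine, S3 and S4 form the mid-intestine, and S1 and S2 form the rostral intestinal bulb. S5 (4 arrays, replicates 1, 2, 3 and 5) was set against S1 (5 arrays, replicates 1 to 5), 9 of the 30 arrays of the series, and S2, S3 and S4 (15 arrays) served to tell where along the gut a difference arose. Each array held RNA of a segment pooled from several fish and labelled with Cy5, together with a reference RNA pooled from whole wild-type fish, mostly male, and labelled with Cy3. Values are log2 ratios of Cy5 to Cy3, normalized within each array, and a step of 1 means a 2-fold change in the ratio. A value of 0 is the typical ratio of probes of like brightness. Probes dim in both channels also lie near 0, so such values do not show a level equal to that of the whole fish. The dyes were never swapped, so a dye bias of a probe remains in its level and cancels in a difference between segments.

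In vertebrates the rostral small intestine is the main site where dietary fat is absorbed and packed into lipoproteins, while bile acids are taken back up near its caudal end. In suckling mammals and in fish, enterocytes of the caudal part also take up whole proteins by endocytosis and digest them in large lysosomes. Hox and Cdx transcription factors are known for their graded expression along the gut. Arrays of bulk tissue cannot tell a change in the number of cells of a type from a change in RNA per cell.

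The tissue label was checked against the enterocyte markers vil1 and fabp2. The ratio of vil1, an actin-bundling protein of microvilli, lay between 2.06 and 2.82 in S5 and between 2.28 and 2.52 in S1, and that of fabp2, the intestinal fatty acid-binding protein, lay between 1.3 and 2.09 in S5 and between 1.27 and 2.01 in S1. A second vil1 probe averaged 1.78 in S5 and 2.73 in S1, and neither gene was called with any probe. Other enterocyte markers were not level at both ends. As given below, slc15a1b and apoa4a were lower in S5, and apoa1a was not called. Cy5 of fabp2 was saturated on 3 S5 and 4 S1 arrays. The share of spots with a Cy5 signal above background was 53.4% to 60.9% in S5 and 46.1% to 67.5% in S1. Some arrays stood apart. S5 replicate 3 had the lowest mean correlation with the other arrays of its segment among the 24 (0.813). S1 replicate 1 and S2 replicate 1 held raised levels of several genes that were high in S5. The spots of S1 replicates 4 and 5, S2 replicates 2 to 5 and S3 replicate 2 were small (120 pixels). Those of all S4 and S5 arrays were large (392 to 460 pixels), so most S2 arrays differed from them in spot size too. The large-spot arrays keep replicate 1 alone from S2. S5 replicate 3 also carried more RNA of skeletal muscle and nerve genes, but not of smooth muscle genes. The median of 14 smooth muscle genes was 0.65 on it and 0.80 to 1.12 on the other S5 arrays. The median of 40 skeletal muscle genes was -0.67 on it and -3.25 to -2.75 on the other S5 arrays, against -3.04 to -2.01 in S1, and that of 29 genes of enteric neurons and glia was 0.32 on it and -0.64 to -0.22 on the other S5 arrays, against -0.64 to -0.14 in S1. Of the 40 skeletal muscle genes 1 was called lower (2.5%, against 4.37% of all named genes), tnnt3a, a troponin (difference -1.24). For tnnt3a, S5 replicate 3 was at 0.11 and the other S5 arrays at -1.67 to -1.15. A second tnnt3a probe differed by 0.09 and was not called. Without S5 replicate 3, the number of lower skeletal muscle genes was 3. The part of these tissues in the results was not tested. For lists with several called members, counts without these arrays are given where they differ clearly from those over all arrays.

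Of 19479 probes tested, 464 were higher in S5 than in S1 (2.38%) and 635 were lower (3.26%), at a Benjamini-Hochberg adjusted p under 0.05 in limma. The higher probes included 217 that differed at least 2-fold and covered 260 named genes. The lower probes included 228 that differed at least 2-fold and covered 415 named genes. The S5 and S1 arrays did not overlap for 393 of the higher and 516 of the lower probes. Over all probes tested the arrays did not overlap for 4.05% with S5 higher and 6.3% with S5 lower. Of the 8761 named genes tested, with 1 probe a gene, 2.72% were higher and 4.37% lower, the shares against which the list counts below stand. The threshold fell between cfhl2 (difference -1.01, adjusted p = 0.0499) just inside and tuba1b (difference -0.75, adjusted p = 0.0501) just outside. Without S1 replicate 1, S2 replicate 1 and S5 replicate 3 the counts were 393 higher and 429 lower, and among large-spot arrays alone 358 higher and 500 lower.

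The path between the ends was read from 3 contrasts, each adjusted over all probes. These were the slope over S1 to S4, which uses no S5 array, S5 minus S4, and S5 minus the level that the S1 to S4 line gives when extended to S5. A called probe was placed as a step at S5 when the slope did not pass and both S5 contrasts passed in the direction of the change. It was placed as a gradual change when the slope passed in that direction and S5 minus the line did not pass. A line contrast that does not pass does not show that the levels lie on a line. Over all probes tested, the slope passed for 1.07% upward and 1.18% downward, and S5 lay above the line for 0.868% and below it for 0.508%. All of these contrasts share arrays with S5 minus S1, so the classes describe the called probes and are not separate tests of them. Of the higher probes, 114 were a step at S5 (0.585% of all tested), 104 a gradual change (0.534%), 3 gradual with a step (0.0154%) and 5 levelling off (0.0257%), in which S5 lay short of the line, and 238 were not assigned. Of the lower probes, 46 were a step (0.236%), 161 gradual (0.827%), 4 gradual with a step (0.0205%) and 11 levelling off (0.0565%), and 413 were not assigned.

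The share of the S5 minus S1 difference already reached at S4 describes the classes, whose contrasts use the same means, and is no test of them. Its median was -0.23% for the higher step probes and 91.6% for the higher gradual probes, and 5.39% for the lower step probes and 90.7% for the lower gradual probes. At S2 the median share was 10.6% for the higher and 57.6% for the lower gradual probes. Of the 161 lower gradual probes, 75 (46.6%) were over 67% complete at S2, and S2 was called lower than S1 for 56. So this class also holds probes that dropped mostly between S1 and S2. Over all higher probes the median share was 6.15% at S2, 19.7% at S3 and 38.3% at S4. Over all lower probes it was 26.3% at S2, 34.3% at S3 and 53.4% at S4. The plot of these shares shows step probes around 0%, gradual probes around 100% and the unassigned probes between them.

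**Figure D1:**
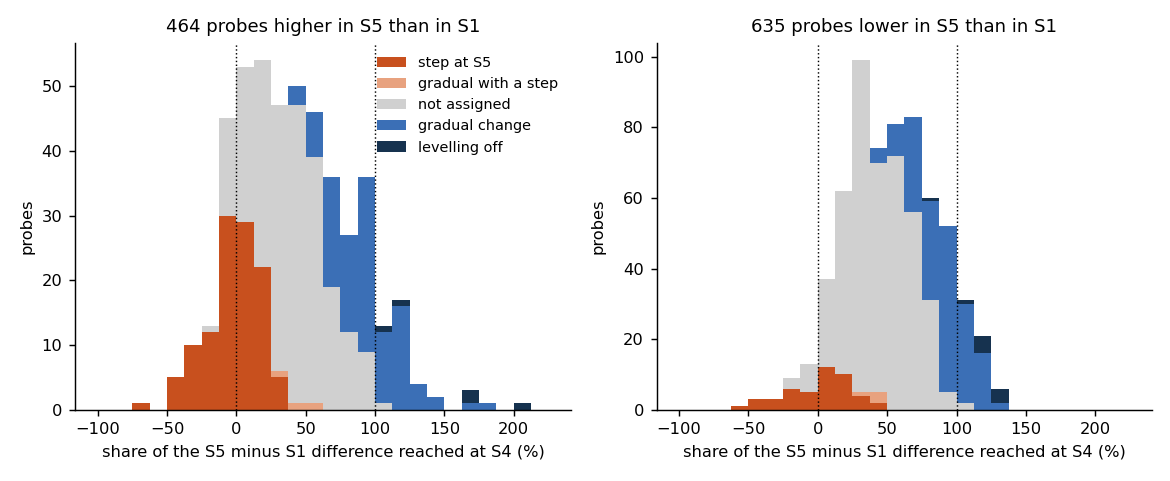
Number of probes (y axis) by the share of the S5 minus S1 difference reached at S4 in percent (x axis), for the 464 probes higher in S5 (left) and the 635 probes lower in S5 (right), with colours for the class of path. Dotted lines mark 0% (S4 at the level of S1) and 100% (S4 at the level of S5), and most of the higher step probes lie near the first line.

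A contrast that is independent of S5 minus S1 set S4 against the mean of S5 and S1 weighted by their 4 and 5 arrays. This weighted mean lies a little nearer S1 than the midpoint does. Of the higher probes, S4 lay on its S1 side for 256 and on its S5 side for 208, and the contrast passed for 27 and 18 of these. Of the lower probes, S4 lay on the S1 side of the weighted mean for 264 and on the S5 side for 371, and the contrast passed for 1 and 15. Over all probes tested, this contrast passed for 0.277% with S4 above the weighted mean and for 0.257% with S4 below it. Between neighbouring segments, 174 probes were higher and 109 lower in S5 than in S4 (0.893% and 0.56%), against 3 higher and 2 lower in S4 than in S3 (0.0154% and 0.0103%), 46 higher and 23 lower in S3 than in S2 (0.236% and 0.118%), and 17 higher and 142 lower in S2 than in S1 (0.0873% and 0.729%).

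Genes of bile acid uptake were higher in S5 by a step. slc10a2, the apical sodium-dependent bile acid transporter, had ratios of 4.50, 5.38, 5.03 and 4.66 on the S5 arrays, against 0.37, -0.69, -0.53, -0.61 and -0.79 on the S1 arrays. Its mean stayed between -0.45 and -0.05 from S1 to S4 and was 4.89 in S5. The difference of 5.34 ± 0.25 (SE) is 40.6-fold (adjusted p = 3.29e-12), and S4 had reached 3.69% of it (S4 against the weighted mean, adjusted p = 1.90e-06).

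fabp6, the ileal bile acid-binding protein, had ratios of 4.98, 3.89, 3.24 and 4.91 in S5, against 0.19, -3.54, -3.76, -3.21 and -3.38 in S1. S1 replicate 1 stood well above the other S1 arrays, and S2 replicate 1 was at 1.03 where the other S2 arrays were at -3.16 or lower. The S4 arrays, at -2.57 to -0.09, already lay above S1 replicates 2 to 5, and S3 replicates 1 and 2 were at -0.16 and -1.44. All arrays of S1 to S4 still lay below the S5 arrays. Cy5 was saturated on all 4 S5 arrays, so the segment had at least 10.6-fold more than S1 (measured means 4.26 and -2.74, adjusted p = 4.95e-05). This bound compares normalized Cy5 brightness and is open to dye bias, as are the other bounds below. slc51a, a subunit of the basolateral bile acid exporter, lay between 1.42 and 1.52 on all S5 arrays and between -0.11 and 0.94 on the S1 arrays, and its means of -0.09, -0.55 and -0.03 in S2, S3 and S4 were below the 0.39 of S1 (difference S5 minus S1 1.09 ± 0.20). These 3 were all the called members among the 7 tested genes of bile acid transport and signalling (42.9%, against 2.72% of all named genes). The median difference of the 7 was 0.35, against -0.07 over the 8761 named genes tested. nr1h4, the bile acid receptor FXR, differed by 0.09, and abcc2, an organic anion exporter, by -0.73, and neither passed the test.

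**Figure D2:**
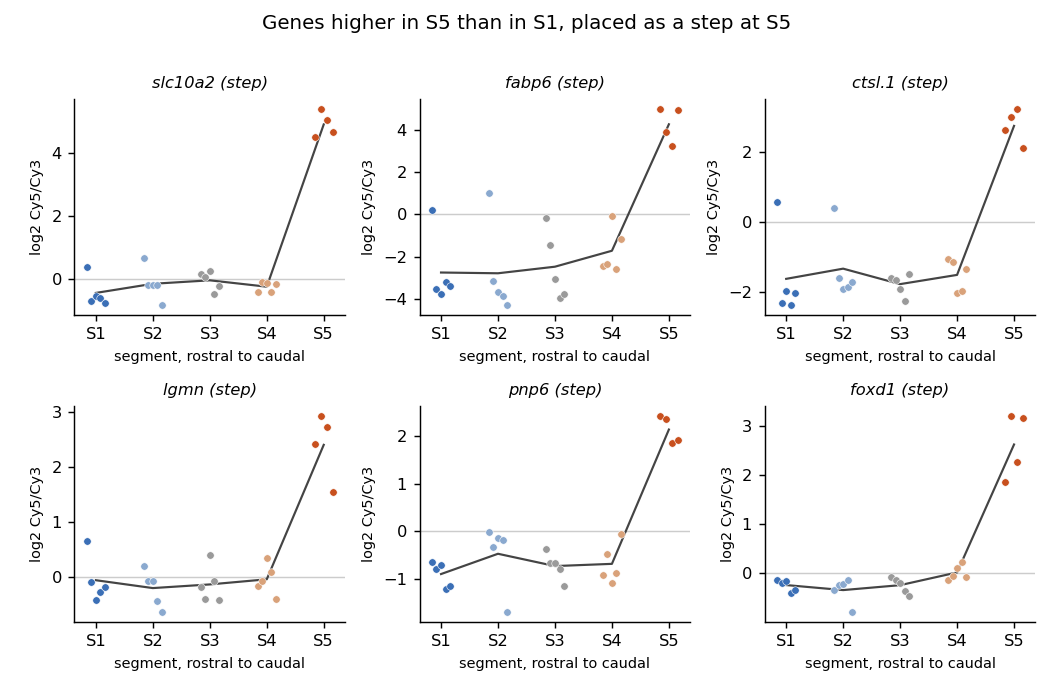
Log2 ratio of Cy5 (segment) to Cy3 (whole fish) on every array of S1 to S5 for 6 genes placed as a step at S5, with a point per array and a line through the segment means. All 4 S5 arrays lie above the S1 to S4 arrays, and the raised first points of S1 and S2 for fabp6 and ctsl.1 are replicate 1. For fabp6 the S4 arrays already lie above S1 replicates 2 to 5.

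Lysosomal hydrolases were often higher in S5, and most of those called took the step path. Of 31 tested members 13 were higher in S5 (41.9%, against 2.72% of all named genes), 28 had a difference above 0 and the median difference was 0.47. The median level of the members was -0.44, -0.48, -0.32 and -0.33 in S1, S2, S3 and S4 and 0.41 in S5, and by array it lay between 0.12 and 0.53 in S5 and between -0.47 and -0.24 in S1. Of the 13, 11 were placed as a step at S5. Without S1 replicate 1, S2 replicate 1 and S5 replicate 3, 12 were higher.

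ctsl.1, a cathepsin L, led the list with ratios of 2.64, 2.99, 3.24 and 2.13 in S5, against 0.56, -2.31, -1.97, -2.38 and -2.05 in S1. Again S1 replicate 1 and S2 replicate 1 (0.40) were the highest arrays outside S5. The difference was 4.38 ± 0.49 (adjusted p = 2.47e-06), with Cy5 saturated on 2 of 4 S5 arrays, so no fold is given. lgmn, the asparaginyl endopeptidase legumain, had ratios of 2.42, 2.94, 2.73 and 1.54 in S5 and 0.65, -0.09, -0.42, -0.27 and -0.18 in S1, a difference of 2.47 ± 0.26, also with Cy5 saturated on 2 S5 arrays. S4 had reached 0.68% of it.

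The alpha-L-fucosidases, which take fucose off glycoproteins and glycolipids, were both higher in S5 by a step. fuca1.2 had ratios of 0.58, 0.53, 0.61 and -0.97 in S5 and between -2.70 and -2.36 in S1 (difference 2.78 ± 0.38), and fuca1.1 lay between 0.60 and 1.57 in S5 and between -0.89 and -0.36 in S1 (difference 1.85 ± 0.17). For fuca1.2, S2 replicate 1 (-0.66) and S4 replicate 2 (-0.76) lay above the lowest S5 array. The other called hydrolases were ctsh, ctsz, dpp7, psap, ctsc, ctsa, ctsd, glb1 and tpp1, with differences of 0.40 to 1.6. ctsd, a cathepsin D, was placed as gradual and tpp1, a tripeptidyl peptidase, was not assigned. ctsla and ctss2.1, also cathepsins, differed by -0.02 and -0.27 and were not called. ctsc, which activates serine proteases, lay between 0.44 and 0.94 in S5 and between -0.75 and -0.21 in S1.

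Among genes that acidify or equip the lysosome, differences were smaller but for atp6v1f. Of 26 tested, 6 were higher in S5 (23.1%), 5 of them as a step, and the median difference was 0.28. They were the proton pump subunits atp6v1f, atp6v1c1b, atp6v1h, atp6v1aa and atp6v1ba, and slc15a4, a lysosomal peptide and histidine transporter. atp6v1f differed by 3.33 ± 0.59, with ratios of -1.77, 0.04, 0.26 and -0.84 in S5 against -4.61, -4.02, -4.32, -2.13 and -4.44 in S1, and the other 5 by 0.43 to 1.02. For atp6v1f, S4 replicate 2 (-1.66) lay above the lowest S5 array. A second probe of slc15a4 differed by 0.47 and was not called. lamp1a and lamp2, proteins of the lysosomal membrane, had differences of -0.75 and 0.24 and were not called. Without S1 replicate 1, S2 replicate 1 and S5 replicate 3, 4 of the 26 were higher.

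Of 12 tested genes of protein endocytosis 2 were higher (16.7%, against 2.72% of all named genes), both as a step. dab2, a clathrin adaptor for cargo receptors, had ratios of -0.45, 0.17, -0.01 and -0.91 in S5 and -2.96, -3.60, -3.96, -1.96 and -0.18 in S1. S1 replicate 5 fell among the S5 arrays, and the call of dab2 (adjusted p = 0.0109) was lost with S1 replicate 1, S2 replicate 1 and S5 replicate 3 left out. snx2, a sorting nexin of the retromer, lay between 0.86 and 1.35 in S5 and between -0.80 and -0.18 in S1 (difference 1.59 ± 0.17). The other 10, among them rab5aa, rab7a and rab11a, differed by -0.20 to 0.40.

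Among single genes with the step path, pnp6, a purine nucleoside phosphorylase, had ratios of 2.43, 2.35, 1.85 and 1.92 in S5, against -0.64, -0.78, -0.70, -1.21 and -1.14 in S1, where no array was above background. It was at least 6.67-fold higher in S5. foxd1, a forkhead transcription factor, had ratios of 1.85, 3.2, 2.25 and 3.16 in S5 and -0.14, -0.20, -0.17, -0.40 and -0.34 in S1 (difference 2.87 ± 0.20, adjusted p = 3.78e-09). From S1 to S4 the means of pnp6 stayed between -0.89 and -0.47 and those of foxd1 between -0.35 and 0.01. The median over all 114 higher step probes lay between 0.89 and 1.46 on the S5 arrays and between -0.25 and 0.00 on the S1 arrays. These probes were selected by their values on the same arrays, so the gap between the medians is no test. S1 replicate 1 was the highest S1 array for 43 of the probes, against 18, 6, 27 and 20 for replicates 2, 3, 4 and 5.

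The called transporters of amino acids and peptides differed among themselves in path, and some had changed before S5. slc15a2, the high-affinity peptide transporter PepT2, averaged -1.46, -1.42, 0.72, 3.22 and 3.88 in S1, S2, S3, S4 and S5. Its ratios were 3.85, 3.93, 3.60 and 4.15 in S5 and -0.91, -1.33, -1.55, -1.53 and -1.99 in S1, a 40.6-fold difference (adjusted p = 1.76e-08). S4 had reached 87.6% of it, and S5 and S4 did not differ past the threshold (adjusted p = 0.62). slc6a19b, the neutral amino acid transporter B0AT1, levelled off. Its means from S1 to S5 were -1.53, -1.44, 2.86, 3.81 and 3.37, and its second probe gave a like difference (4.40 beside 4.90).

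slc1a1, the glutamate and aspartate transporter EAAT3, changed later than these. It lay between -0.32 and -0.04 in S1, where no array was above background, and between -0.83 and 0.19 in S2 and S3, then averaged 2.19 in S4 and 3.99 in S5. The S4 arrays were spread between 0.54 and 3.51. S5 was at least 13.7-fold above S1, and the path was gradual with a step.

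The peptide transporter of the brush border, slc15a1b (PepT1), ran the other way. Its ratios were 1.79, 1.56, 0.65 and 1.45 in S5, against 2.64, 2.72, 3.32, 3.48 and 2.88 in S1. Its means stayed between 2.81 and 3.03 from S1 to S4, so the 3.12-fold lower level in S5 was a step (adjusted p = 3.29e-04). slc38a4, a carrier of neutral amino acids, was lower by 1.22 on the log2 scale, with a mean of 0.36 already in S2 and 1.74 in S1, and S1 replicate 1 (0.62) lay among the S5 arrays. Over the 19 tested genes of sugar, peptide and amino acid transport 4 were higher (21.1%) and 2 lower (10.5%), with a median difference of 0.14. slc5a1, the sodium-glucose transporter, had means of 2.55 in S5 and 2.72 in S1 and was not called.

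Called peptidases of the brush border were higher from the segments before S5 on. enpep, the glutamyl aminopeptidase, averaged 1.25, 1.79, 2.55, 3.23 and 3.28 from S1 to S5 and lay between 2.81 and 3.63 in S5 and between 0.71 and 1.78 in S1. Its slope over S1 to S4 was 0.67 per segment (adjusted p = 2.30e-08), while S5 minus S4 was 0.05. anpepb.1, an aminopeptidase N, and xpnpep2, an X-prolyl aminopeptidase, were 1.52 and 0.99 higher in S5, also by the gradual path. These were 3 of 16 tested brush border and digestive hydrolase genes (18.8%, against 2.72% of all named genes), and alpi.1 and alpi.2, intestinal alkaline phosphatases, differed by -0.36 and 0.53 and were not called. stom, the membrane protein stomatin, took the same path to a difference of 2.24 ± 0.19, and its second probe gave 2.35.

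**Figure D3:**
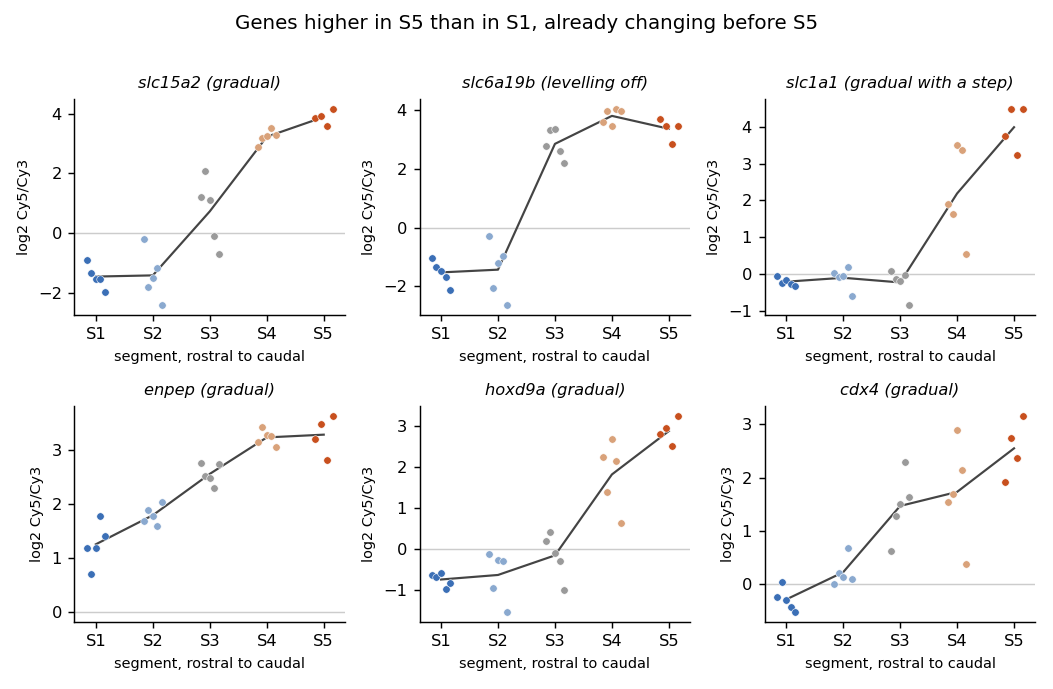
Log2 ratio of Cy5 to Cy3 on every array of S1 to S5 for 6 genes higher in S5 than in S1 whose change began before S5, with a point per array and a line through the segment means. slc6a19b and slc15a2 are raised from S3 on, slc1a1 and hoxd9a from S4 on, and enpep and cdx4 climb from S2.

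Posterior hox genes were higher in S5 in 9 of 15 tested (60%, against 2.72% of all named genes) and lower in 1 (6.67%, against 4.37%). On large-spot arrays 6 were higher. Of the 9, 1 was placed as a step and 2 as gradual. Cy5 was above background on all S5 arrays for 5 of the 15 genes and on all S1 arrays for 1. Over the 15 genes the median difference was 0.89, and the median level by array was 0.38 to 1.23 in S5 and -0.14 to -0.02 in S1. hoxd9a had ratios of 2.79, 2.94, 2.50 and 3.24 in S5, against -0.64, -0.68, -0.59, -0.95 and -0.81 in S1, where it was not well above background on any array. The measured means differed by 3.60 ± 0.34, and the S4 arrays were spread from 0.63 to 2.67, up into the range of S5. hoxa9b had ratios of 2.63 to 3.55 in S5 and -0.12 to 0.41 in S1 (difference 3.07 ± 0.31), and hoxd10a 1.47 to 2.41 in S5 and -0.09 to 0.10 in S1 (difference 1.84 ± 0.17). For hoxa9b, S4 ran between 0.67 and 2.57, with replicates 2 and 5 near S3.

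For hoxa10b, Cy5 was above background on only 2 of 4 S5 arrays and on no S1 array, so no fold is given. Its ratios were 1.26, 2.05, 0.58 and 2.26 in S5, 0.33 to 1.31 in S4 and -0.20 to -0.03 in S1. Of the 15 posterior hox genes, 12 had a difference above 0 and 3 below it. The 1 called lower was hoxb9a, at -0.17, -0.28, 0.05 and 0.04 in S5 and 0.43, 1.55, 1.37, 0.61 and 1.12 in S1. Its mean had dropped to 0.02 by S2.

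cdx4, a caudal-type homeobox gene that acts upstream of hox genes, averaged -0.29, 0.22, 1.47, 1.73 and 2.55 from S1 to S5. It was not above background on any S1 array, and S5 (1.92, 2.75, 2.37 and 3.16) was at least 5.74-fold higher. osr2, a zinc finger factor, was 0.94 higher in S5 and reached its S5 level by S3. pdx1, the homeobox factor of duodenum and pancreas, ran between 0.03 and 0.79 in S5 and between 1.09 and 1.54 in S1 and was at 0.32 already in S2. hnf4b, a nuclear receptor of enterocytes, was lower by 0.90 on the log2 scale. Of 30 tested intestinal transcription factors 4 were higher (13.3%, against 2.72% of all named genes) and 2 lower (6.67%, against 4.37%), and on large-spot arrays 2 were higher. gata4, gata5, gata6 and hnf4a, with differences of -0.75 to -0.32, were not called.

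Many genes of lipid absorption and lipoprotein assembly were lower in S5. Of 31 tested, 11 were lower (35.5%, against 4.37% of all named genes), 26 had a difference below 0 and the median difference was -0.55. The median level was 2.32, 2.16, 2.21, 2.34 and 1.52 from S1 to S5, and by array 0.93 to 1.89 in S5 and 2.09 to 2.36 in S1. Of the 11, 7 were placed as a step at S5. The 1 higher member, cel.2, is a bile salt-stimulated lipase of pancreatic juice, with Cy5 saturated on all arrays of both segments. Without S1 replicate 1, S2 replicate 1 and S5 replicate 3, 10 were lower.

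apoa4a, an apolipoprotein of chylomicrons, had ratios of 2.66, 1.63, 0.55 and 2.04 in S5, against 4.09, 5.00, 4.78, 4.64 and 4.44 in S1. Its means from S1 to S4 were 4.59, 4.37, 4.73 and 3.91. The difference was -2.87 ± 0.32 (adjusted p = 2.58e-06), and since Cy5 was saturated on 4 of 5 S1 arrays no fold is given. pla2g12b, a secreted protein needed for lipoprotein loading in mouse and zebrafish, had ratios of 2.38, 1.80, 0.56 and 1.44 in S5 and 2.95 to 3.34 in S1. apoeb had 0.01 to 0.71 in S5 and 1.45 to 2.09 in S1, with Cy5 saturated on 4 S1 arrays. For apoa4a and pla2g12b the lowest S5 array was replicate 3.

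The other 8 lower members had differences of -1.26 to -0.79. They were the triglyceride transfer protein mttp, the apolipoprotein B gene apobb.1, the enzymes dgat2, gpat3, acsl4a and acsl5 of fatty acid activation and glyceride synthesis, and the lipid droplet coats plin2 and plin3. apoa1a had 1.1, 0.85, 0.79 and 1.11 in S5 and 2.11, 1.42, 1.57, 0.85 and 1.58 in S1, and was not called (difference -0.54, adjusted p = 0.34). gpd1c, a glycerol-3-phosphate dehydrogenase, was 2.74-fold lower in S5 as a step (1.98, 1.31, 1.3 and 1.35 in S5, 2.67 to 3.09 in S1), while its second probe, dimmer, differed by -0.15. star, a cholesterol carrier of the mitochondrion, and ada, adenosine deaminase, took the same path. star ran between -0.78 and -0.38 in S5 and between 0.62 and 1.2 in S1, and ada between 0.73 and 1.65 in S5 and between 2.3 and 2.85 in S1.

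**Figure D4:**
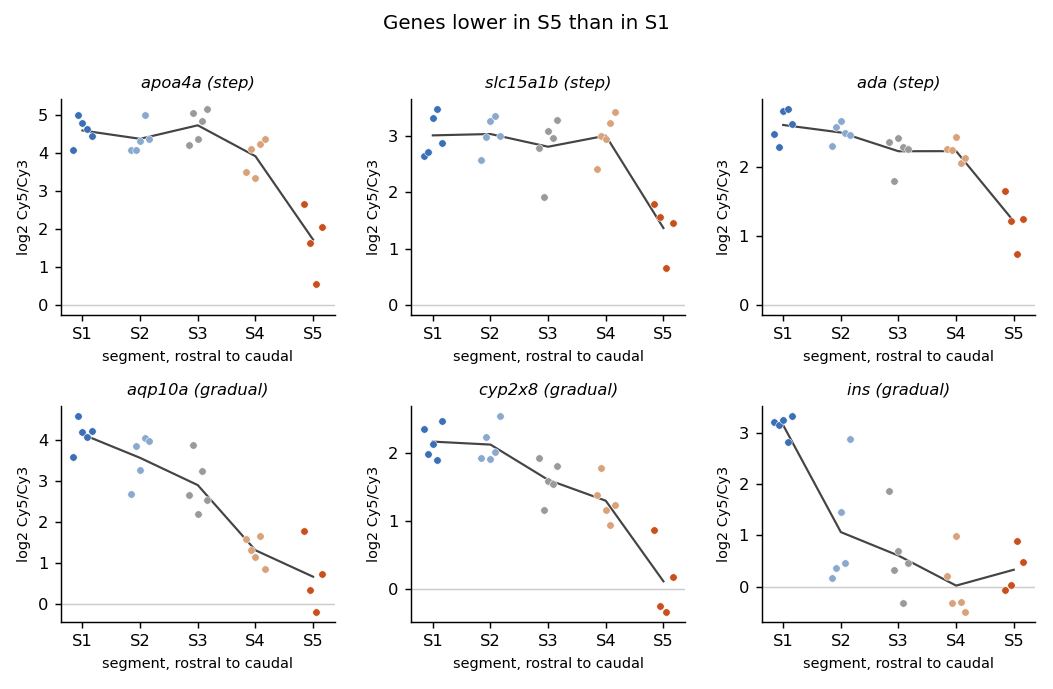
Log2 ratio of Cy5 to Cy3 on every array of S1 to S5 for 6 genes lower in S5 than in S1, with a point per array and a line through the segment means. apoa4a, slc15a1b, ada and cyp2x8 drop most between S4 and S5, with cyp2x8 already falling from S2 to S4. aqp10a falls along the way. ins has its highest mean in S1, with S2 replicate 5 among the S1 arrays.

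Enzymes of drug and steroid metabolism were often lower in S5, and no called member was placed as a step. Not passing the step rule does not show that a step is absent. Of 34 tested cytochrome P450 and conjugating enzymes 13 were lower (38.2%, against 4.37% of all named genes) and 1 was higher, gstm.1, a glutathione transferase (difference 0.62). The median difference was -0.62, and of the 13 lower genes 4 were placed as gradual, 1 as levelling off and 0 as a step. The median level was 2.03, 1.75, 1.68, 1.46 and 1.36 from S1 to S5. cyp2ad2 had ratios of 0.99, -0.18, -0.49 and 0.48 in S5, against 2.44, 1.77, 2.74, 1.97 and 2.29 in S1, and averaged 1.47, 1.35 and 1.14 in S2, S3 and S4. sult6b1, a cytosolic sulfotransferase, averaged 3.56, 3.11, 2.65, 2.16 and 1.65 from S1 to S5, a difference of -1.92 ± 0.24, but its 2 dimmer probes differed by -0.65 and -0.11 and were not called. cyp46a1.1, a cholesterol hydroxylase, was lower by 1.44 on the log2 scale, and gsto2, a glutathione transferase, by 1.26. Without S1 replicate 1, S2 replicate 1 and S5 replicate 3, 7 of the 34 were lower, without S5 replicate 3 alone 8, on large-spot arrays 8, and after median centring in place of loess 7.

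Outside the lists, cyp2x8, a further P450, had ratios of 0.86, -0.25, -0.34 and 0.17 in S5 and 2.34, 1.98, 2.13, 1.89 and 2.46 in S1 (difference -2.05 ± 0.22, adjusted p = 1.29e-06). Its S4 arrays lay between 0.93 and 1.77, and its largest drop was between S4 and S5. ugdh, which makes the glucuronic acid donor for conjugation, averaged 2.25 and 2.37 in S1 and S2, 1.07 and 0.75 in S3 and S4, and 0.21 in S5. padi2, a peptidylarginine deiminase, was 0.82 in S1, -0.13 in S2 and between -0.78 and -0.58 from S3 to S5, a levelling off (adjusted p of S5 minus S1 = 3.78e-09).

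A minority of the genes of energy metabolism passed the test, mostly as lower in S5. Of 73 tested subunits of oxidative phosphorylation 16 were lower (21.9%, against 4.37% of all named genes), with differences of -0.82 to -0.43. The median difference over all 73 was -0.30. By array the median level was 0.00 to 0.13 in S5 and 0.33 to 0.49 in S1, without overlap. atp5mc3b, a subunit of the ATP synthase, had ratios of -0.53, -0.06, 0.27 and -0.09 in S5 and 0.99, 0.58, 0.89, 0.68 and 0.44 in S1. The number lower was 10 without S1 replicate 1, 9 without S5 replicate 3, 5 without both and S2 replicate 1, 7 among large-spot arrays, and 0 in limma after median centring, where the median difference was -0.18. Of 26 genes of fatty acid oxidation and peroxisome 4 were lower (15.4%, against 4.37%), etfa, etfb, acadm and hadhb, and after median centring 0 were lower and 1 was higher in limma. Of 31 genes of glycolysis and gluconeogenesis 5 were lower (16.1%, against 4.37%), led by ldha, a lactate dehydrogenase (difference -1.36), and 1 was higher, the enolase eno1b (difference 1.58). After median centring 1 was lower. eno1b had ratios of -0.25, 0.08, 0.44 and -0.30 in S5 and -1.90 to -1.14 in S1.

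Hormones of the pancreatic islet were high in S1 and lower in the segments after it. ins, insulin, had ratios of -0.07, 0.03, 0.89 and 0.47 in S5, against 3.21, 3.16, 3.27, 2.82 and 3.34 in S1, and averaged 1.07, 0.61 and 0.02 in S2, S3 and S4. sst1.1 and sst2, somatostatins, and gcga, glucagon, followed it. Their differences were -2.49 ± 0.39, -2.45 ± 0.41 and -2.31 ± 0.35, and their S1 arrays all lay at 3.02 or above, where the S5 arrays were at 1.51 or below. A second probe of gcga differed by -1.08 and was not called. On S2 replicate 5 all 4 hormones were higher than on the other S2 arrays, at 2.60 to 3.00. The rule placed them as gradual because the S1 to S4 slope passed, but S2 had already reached 74% of the insulin difference. Of 17 tested genes in the list of enteroendocrine cells, which holds 3 of these hormones, 3 were lower (17.6%, against 4.37% of all named genes). The 1 higher member (5.88%, against 2.72%) was adcyap1a, a neuropeptide. In the same list neurod1, chga and tph1b differed by -0.19 to 0.06 and were not called.

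Many liver genes were also higher in S1 than in later segments. Of 33 tested 16 were lower in S5 (48.5%, against 4.37% of all named genes), 31 had a difference below 0 and the median difference was -0.98. The median level was 0.33, -0.72, -1.57, -0.77 and -0.81 from S1 to S5, so it was lowest in S3, and by array it was -0.97 to -0.38 in S5 and -0.0046 to 0.80 in S1. All 16 had passed 67% of their difference by S2. ahsg1, fetuin, had ratios of -0.73, -0.95, -1.33 and -0.64 in S5 and 0.22, 0.89, 1.28, -0.08 and 0.39 in S1, and cfb, complement factor B, and fgg, a fibrinogen chain, differed by -1.37 and -1.31. Of the defining liver markers, fabp10a, tfa and fgb had differences of -0.79, -1.21 and -1.09 and did not pass, and were above background on all S5 and S1 arrays, with Cy5 of fabp10a saturated on 4 S1 arrays and Cy5 of tfa on 1 S5 and 5 S1 arrays. The number lower was 8 without S5 replicate 3, 9 without it, S1 replicate 1 and S2 replicate 1, and 5 after median centring. What part liver or islet tissue had in the 75 lower gradual probes that were over 67% complete at S2, a split chosen after the values were seen, was not tested.

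Digestive enzymes of the exocrine pancreas gave higher ratios in S5 in 20 of 24 tested (83.3%, against 2.72% of all named genes), with a median difference of 1.48, but their brightness limits what can be said. For 17 of the 20, Cy5 was saturated on at least 3 S5 and 4 S1 arrays, so no fold is given. ctrb.1, a chymotrypsinogen, had ratios of 2.65, 1.53, 1.96 and 2.35 in S5 and 0.41, -0.39, 0.27, -0.29 and -0.41 in S1, with Cy5 saturated on all 9 arrays and Cy3 on 2 S1 arrays. The same saturation of Cy5 held for ctrl, ela2 and prss1. Of the members with no saturated array, amy2al2 and pdia2 passed with differences of 1.51 and 1.14 but their arrays overlapped, and ptf1a, the transcription factor of acinar cells, differed by 1.12 (adjusted p = 0.087). The list counts ins as a member, its 1 lower gene. Over all called probes, 22 of the 464 higher and 0 of the 635 lower had Cy5 saturated in both segments in this way, and 19 of the 22 were in the gradual class.

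Of 35 tested genes of water and ion transport 3 were higher (8.57%, against 2.72% of all named genes) and 6 lower (17.1%, against 4.37%). Without S5 replicate 3, 1 was higher and 5 were lower. aqp10a, an aquaglyceroporin, had ratios of 1.78, 0.34, -0.20 and 0.74 in S5, against 3.60, 4.60, 4.21, 4.08 and 4.23 in S1. It averaged 3.57, 2.90 and 1.31 in S2, S3 and S4, a gradual path to an 11.2-fold lower level (adjusted p = 7.89e-07). slc13a1, a sodium-sulfate cotransporter, had ratios of 1.11, -0.49, -0.66 and -0.28 in S5 and 1.89 to 2.64 in S1, gradual with a step. ca2, a carbonic anhydrase, was lower as a step, with a difference of -1.16. aqp8a.1, a water channel, was higher by 1.31 ± 0.21 along a gradual path, while its second probe differed by 0.28 and was not called.

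Among markers of other cells, 2 of 32 tested immune genes were lower (6.25%, against 4.37% of all named genes) and 1 higher (3.12%, against 2.72%), near those shares. The lower genes were the macrophage-associated mfap4.1 and the neutrophil myeloperoxidase mpx, by 2.00 and 1.22 on the log2 scale. The higher gene was cpa5, a carboxypeptidase with saturated Cy5. The other 29 were not called, and the median difference of the list was 0.07. For mpx the lowest S5 array was replicate 3, at -0.01 where the others were at 1.13 or more, and its dimmer second probe differed by 0.68 and was not called. timp2a and timp2b, inhibitors of matrix proteases, were the called members of 28 connective tissue and endothelial genes (7.14%, against 2.72% of all named genes, differences 1.08 and 0.74). tagln2 and myl9b were those of 14 smooth muscle genes (14.3%, against 2.72%, differences 0.91 and 0.73). Without S5 replicate 3, 1 gene of each of these lists was higher, and without S1 replicate 1, 1 of the connective tissue list. scd, a stearoyl-CoA desaturase, was 1.09 higher in S5 but peaked before it, at 3.07 in S3 and 3.06 in S4. Second probes of scd and of myl9b each differed by 0.51 and were not called. In limma none of 67 ribosomal protein genes passed (3 higher and 5 lower at an unadjusted p under 0.05, median difference 0.06), nor did any of 29 genes of enteric neurons and glia (2 higher and 1 lower unadjusted, and 1 called higher without S5 replicate 3), nor of 7 goblet cell genes (0 unadjusted). Of 52 proliferation genes 1 was higher and 1 lower (1.92% each, against 2.72% and 4.37% of all named genes). smc2 was higher by 1.08 and smc4 lower by 0.57, at adjusted p-values of 0.0480 and 0.0397 in limma. A second smc2 probe differed by -0.14 and was not called. Other smc4 probes differed by -0.56, which was called, and by 0.06, which was not. On S5 replicate 3 smc2 was at -0.51, and on the other S5 arrays at -2.92 to -2.10.

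**Figure D5:**
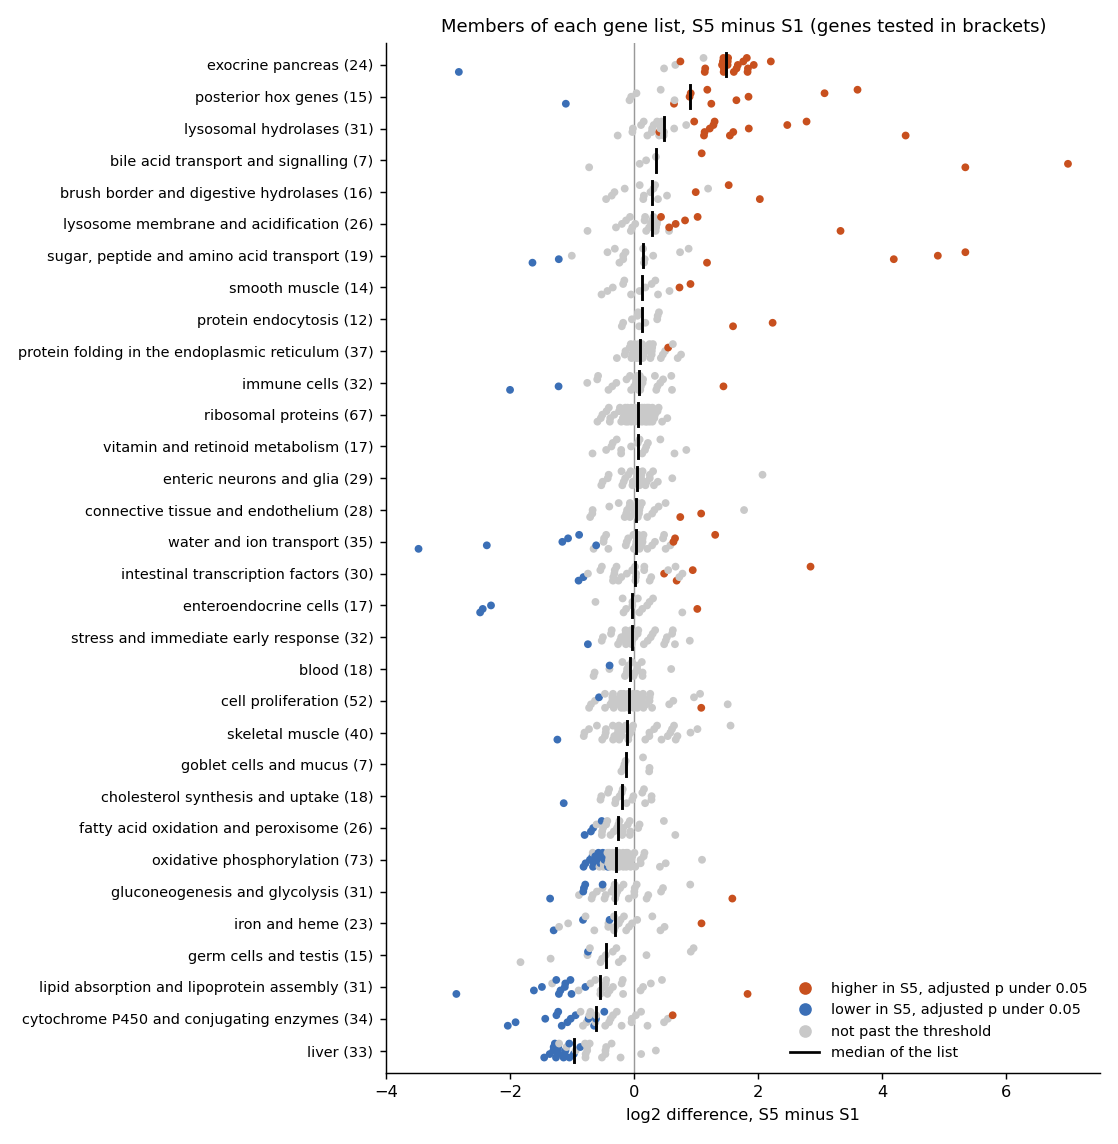
Log2 difference S5 minus S1 (x axis) of each tested member of 32 gene lists (y axis, number tested in brackets), with a point per gene, coloured where the adjusted p was under 0.05, and a black bar at the list's median. Lysosomal, bile acid and hox lists extend to the right, liver, P450 and lipid lists to the left. Most of the exocrine pancreas points come from saturated spots.

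Of the genes that the study names for this stretch and that were not described above, lipf, a lipase, was a step, with 1.86 to 1.98 in S5 and 0.93 to 1.22 in S1, and mbl2, a mannose-binding lectin, was 1.01 to 1.74 in S5 and 2.41 to 3.22 in S1 (difference -1.40 ± 0.20). gdpd1, zgc:110410, cfl1 and aqp3a had differences of -0.52, -0.44, 0.34 and 0.07 with adjusted p between 0.35 and 0.97 and were not called. zgc:110410 averaged 2.37 in S5 and 2.81 in S1.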

How the data were processed

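The 30 arrays carried RNA of intestinal segments labelled with Cy5 against a Cy3 whole-fish reference, and the 24 arrays of S1 to S5 entered the fit. The authors deposited spot intensity values (means and local background medians per channel) and a table of normalized log2 ratios, also made by the authors, which served as an alternative. Background was corrected with normexp (offset 50) and a loess curve was removed from the ratios of each array, control spots having no weight. Probes above background (by over 2 background SD, in either channel) on at least 3 arrays of a segment were kept (19479), and limma 3.58.1 in R 4.3.3 was fitted with segment as factor. p-values were adjusted over all probes (Benjamini-Hochberg). Symbols came from the array annotation, most updated by synonym (8022 of 11724 spots with a symbol), and the probe with the highest average brightness stood for a gene. Genes were named by a rule: the 10 largest differences in each direction and the 5 largest of each path (no overlap, Cy5 above background and unsaturated), up to 4 called members of each list with up to 2 in the other direction, and the genes the study names for this stretch. Uncalled or further list members were named after their values were seen. Saturated means a raw signal of 65000 or more. The members and lists were chosen with earlier results of these data known. The study describes a biological replicate as a pool of the same segment from 10 fish, with 5 replicates prepared for each segment. The labels themselves do not say that replicates were separate pools. The p-values measure the spread between these arrays. The number of arrays limits the precision. The fit was tested on simulated data. Alternatives covered background, normalization, filter, fit and arrays left out.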

Additional observations from a re-analysis of the deposited data

Results flagged for a closer look

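In S5 and in S1, 110 named genes and the mean correlation of each array with the others of its segment were checked. Of these 222 sets of arrays, 16 held an array far from the others by Dixon's ratio, and chance alone gives about 1 in 20. Of the 16, 5 were S1 replicate 1 standing high. It was at 0.19 for fabp6 (nearest S1 array -3.21), 0.56 for ctsl.1 (nearest -1.97), 0.37 for slc10a2 (nearest -0.53), 0.019 for atp6v1c1b (nearest -0.37) and 0.016 for hebp2, a heme-binding protein (nearest -0.72), all genes with a step to a higher level in S5.

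In the other S1 arrays, replicate 5 was high for atp6v1h at 0.50 and low for apoeb at 1.45 and smc4 at -1.33. Replicate 4 was high for atp6v1f at -2.13 and fuca1.2 at -2.36, and replicate 2 was low for stom at -0.53. In S5, replicate 1 was high for gpd1c at 1.98 and gsto2 at -0.17 and low for scd at 1.89, replicate 3 was low for mpx at -0.0070, and replicate 5 was low for fuca1.2 at -0.97. The cause of these values was not tested.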

How the results depend on the processing

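Besides leaving out each of 24 arrays in turn, 17 alternatives gave 63 counts, of which 46 were within 1.5 times the reported ones (464 higher, 635 lower, 160 step and 265 gradual probes). Median centring in place of loess gave 471 higher, 200 lower and 138 gradual probes, so 70.2% of called probes were higher, against 42.2%. With all 30 arrays in the fit there were 264 higher, 322 lower, 87 step and 150 gradual probes, and with array weights 788 higher, 246 step and 598 gradual. A Bonferroni corrected p under 0.1 left 121 higher, 81 lower, 44 step and 48 gradual probes, 59.9% of them higher among the called. Scale normalization between arrays gave 83 step probes, the deposited normalized log2 ratios gave 96, and classes set by the share reached at S4 gave 400. The large-spot arrays alone, an alternative chosen after seeing the data like the other choices of arrays left out together, gave 169 gradual probes. The causes were not tested, apart from the fewer probes that a stricter threshold passes by construction.

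Leaving out 1 array gave 312 to 566 higher, 439 to 780 lower, 100 to 210 step and 168 to 298 gradual probes. The lowest gradual count came without S1 replicate 2, the other lowest counts without S5 replicate 2, and the highest counts without S3 replicate 2. Same-numbered S5 and S1 arrays deviated together little (r = 0.14, 0.01, -0.03 and 0.06 for replicates 1, 2, 3 and 5). These values cannot tell whether same-numbered pools came from the same fish, and the main fit used no pairing. The fit with replicate block gave 473 higher, 687 lower, 155 step and 322 gradual probes. Of 110 named genes 103 were called, and of these 43 kept their call under all alternatives and 54 under all but the Bonferroni one. The direction turned in 4 genes, all uncalled. For fabp2 the difference was -0.14 after scale normalization and -0.027 (without S5 replicate 1) to 0.24 with 1 array left out, for vil1 -0.23 after scale normalization, and for cfl1 -0.055 (without S5 replicate 3) to 0.63 with 1 array left out and -0.075 also without S1 replicate 1 and S2 replicate 1. For aqp3a it was -0.0070 with the replicate block, -0.33 with array weights, -0.04 without S1 replicate 4, -0.71 (without S5 replicate 3) to 0.46 with 1 array left out, -0.64 without S5 replicate 3, S1 replicate 1 and S2 replicate 1 together, -0.16 on large-spot arrays and -0.17 with spot size as a block. The calls of hadhb, smc2, blvrb, selenos and atp1b2a were lost under 20 to 30 of 39 or 40 alternatives, and those of smc4, timp2b, atp2b1a, gstm.1, stard4, tagln2, scd and slc15a4 under 10 to 15. Signal limits the lower segment, where 64 higher and 39 lower probes were above background on no array.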
